A study of Mus musculus with 5 samples.

Results

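The genes described here encode the machinery that licenses DNA replication origins, fires them and copies DNA at the fork, in forelimbs of mouse embryos at E11.5. They were taken by symbol from a list of 50 genes. Of these, 49 had a row of their own in the authors' table of 28092 rows, and where a symbol had several rows the one with the highest mean level was used. Orc5 shared its row with the pseudogene Gm15421 and is not counted.

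Prmt5cKO embryos carried 1 copy of Prx1Cre and 2 conditional Prmt5 alleles (Prx1Cre+/-;Prmt5c/c), and 2 samples were sequenced. Controls, 3 samples, are labelled only as control, and which alleles they carried is not stated in the labels. All embryos were of mixed C57BL/6 and Swiss Webster background with 47 to 48 somites. Prx1Cre is a recombinase transgene active in limb bud mesenchyme, so ectoderm, blood and vessel cells of the forelimb were not its targets. Prmt5 encodes an arginine methyltransferase. The comparison asks how transcript levels differ in the forelimb when the mesenchyme loses it. The authors deposited 1 FPKM value (fragments counted per length of transcript and per library total) for each gene in either genotype, so no value per sample and no SD can be given, and sequencing depth is unknown. FPKM is scaled to length and can be compared between genes.

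Origins are marked by the origin recognition complex. Cdc6 and Cdt1 then load the MCM helicase there in G1, and geminin (Gmnn) holds Cdt1 in check once S phase has begun. The kinase Cdc7 with its activator Dbf4 helps turn the loaded MCM ring into the active helicase, which travels with Cdc45 and the GINS complex. Polymerase alpha with primase starts each strand, polymerases delta and epsilon extend it while tethered to the PCNA ring that RFC loads, and ribonucleotide reductase, thymidylate synthase and thymidine kinase supply nucleotides. Many of these genes are known targets of E2F transcription factors, and proliferating cells express them.

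Prmt5 was at 12.5 FPKM in Prmt5cKO and 40.9 FPKM in control, for which the authors' deposited table gives a log2 fold of -1.71. Of 6 limb mesenchyme genes Lhx2 rose, Prrx2, Tbx5, Msx1 and Twist1 did not pass and Prrx1 had no test, with sums of 445 FPKM in Prmt5cKO and 435 FPKM in control. The forelimb factor Tbx5 was at 19.9 FPKM in Prmt5cKO and 23.0 FPKM in control. Of 3 hindlimb genes Tbx4 was at 2.95 FPKM in Prmt5cKO and 3.81 FPKM in control and did not pass, and Pitx1 and Hoxc10 were below 1 FPKM in both genotypes. Xist, which coats the inactive X chromosome, was at 0.392 FPKM in Prmt5cKO and 87.3 FPKM in control, and the Y-linked Ddx3y at 21.8 FPKM in Prmt5cKO and 0.0840 FPKM in control, so effects of genotype and of the embryos' sex cannot be told apart in any difference below. Of 12 macrophage markers 11 rose and none fell, and their summed level was 72.8 FPKM in Prmt5cKO and 37.8 FPKM in control. Of 9 erythroid markers 1 fell, with sums of 7354 FPKM in Prmt5cKO and 9241 FPKM in control, and of 8 muscle markers, 7 of them with a mean of at least 1 FPKM, 2 fell, with sums of 116 FPKM in Prmt5cKO and 142 FPKM in control. The muscle markers were split. Pax3, Myf5 and Myod1 had log2 folds of 1.11, 0.37 and 0.21, and the others had a ratio below 1. Pax3 had a mean below 1 FPKM and is not counted as risen. Of 9 surface ectoderm markers Epcam, Fgf8 and Sp6 rose, with sums of 171 FPKM in Prmt5cKO and 167 FPKM in control. Of 8 endothelial markers Erg fell, 5 did not pass and 2 had no test, with sums of 65.9 FPKM in Prmt5cKO and 71.0 FPKM in control. Of 7 nerve markers, 4 of them with a mean of at least 1 FPKM, Erbb3 and Gfra3 fell, with sums of 16.7 FPKM in Prmt5cKO and 21.1 FPKM in control. As shares of those tested, 91.7% of macrophage, 33.3% of surface ectoderm and 20% of limb mesenchyme markers rose, against 4.83% of all genes. Fallen were 12.5% of erythroid, 16.7% of endothelial, 28.6% of muscle and 50% of nerve markers, against 19.3% of all genes. None of these shares was tested against that of all genes. No marker in any of these lists was listed at 0, and the part of these cells in the results below was not tested. In a bulk sample fewer cells of a type and less RNA per cell cannot be told apart.

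Most of the replication genes were expressed above the median gene, and few of them differed between the genotypes. A gene is said to have risen or fallen where the authors' q-value, an adjusted p, was under 0.05 and the mean of both genotypes was at least 1 FPKM; all 49 reached this level. Cdt1, Mcm10 and Hells rose, Tk1, Pold1 and Pole fell, 38 did not pass, and 5 (Orc3, Orc4, Rfc1, Rfc4 and Uhrf1) have a fold of 0 and a q of 1 in the authors' deposited table, read here as not tested. The 6 changed members are 13.6% of the 44 tested. Among all 10617 tested single genes 24.1% were changed, 4.83% risen and 19.3% fallen. Among the 5849 tested genes at or above the level of the lowest member, these shares were 25.4%, 5.37% and 20.1%. So 3 of 44 risen members (6.82%) is near the background, and 3 of 44 fallen members is a smaller share than among genes at large. The difference between these shares was not tested, as the genes were listed with earlier results of these data in view.

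Member levels ran between 8.23 and 360 FPKM in Prmt5cKO and between 8.30 and 330 FPKM in control. Pcna, the sliding clamp, was highest in both genotypes. Mcm8 was lowest in Prmt5cKO and Orc1 in control. Their levels summed to 2801 FPKM in Prmt5cKO and 2796 FPKM in control, 100.1% of the control sum. The order of the members by level was alike in both genotypes (Spearman's rho 0.97 across 49 genes, which share the same pooled libraries). The median member, with a mean of 42.4 FPKM, stood above the median of 11.3 FPKM over 11674 single genes of at least 1 FPKM, as did 47 of the 49; Orc1 and Mcm8 lay below it.

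**Figure D1:**
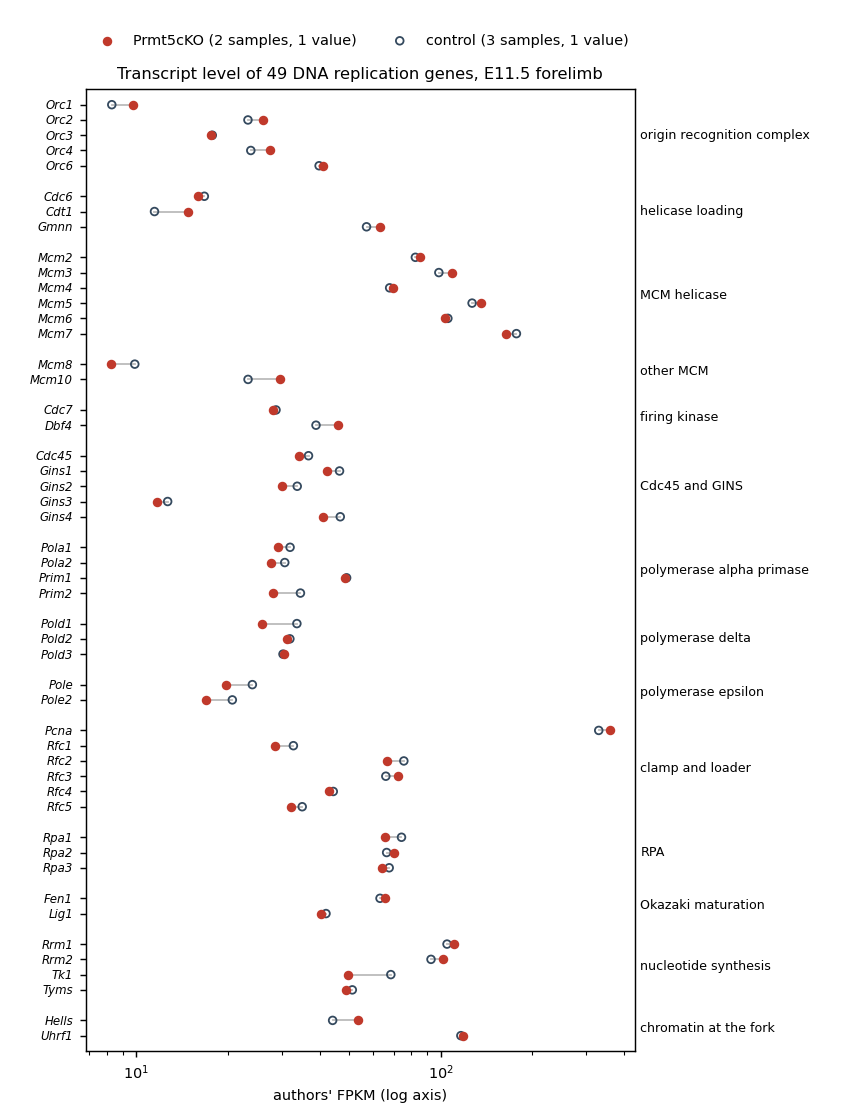
Authors' FPKM on a log axis for the 49 replication genes, grouped by role, with 1 filled point for Prmt5cKO and 1 open point for control per gene. Paired points lie close together, Pcna is highest at 360 FPKM in Prmt5cKO and 330 FPKM in control, and the widest gap is that of Tk1, at 49.4 FPKM in Prmt5cKO and 68.5 FPKM in control.

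The ratios of the members also lay within a narrow range. The log2 ratio of Prmt5cKO over control was between -0.47 (Tk1) and 0.37 (Cdt1), so no member reached a 1.5-fold difference, which 9.60% of all single genes and 5.0% of those at or above the lowest member's level did. Of the 49 members 44 (89.8%) lay within 0.3 of 0 on the log2 scale, against 75.6% of genes at or above the lowest member's level and 67.5% of all single genes. The table leans downwards as a whole. With a pseudocount of 1 FPKM the median log2 ratio was -0.03 over the members and -0.12 over all single genes, so that 33 of 49 members lay above the median of all genes although 28 of 49 lay below a ratio of 1.

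**Figure D2:**
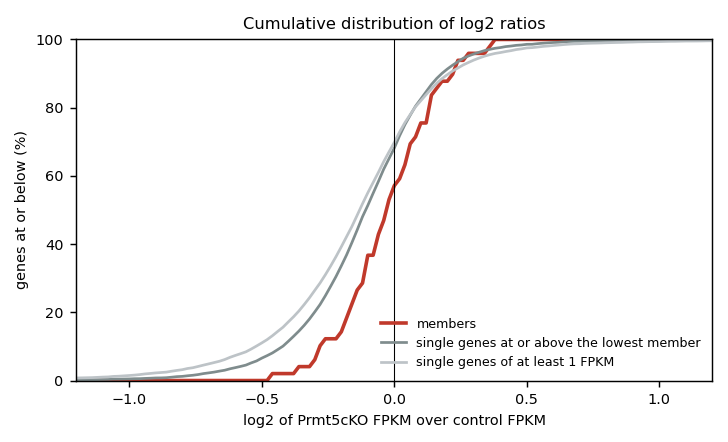
Share of genes (vertical axis, percent) at or below a given log2 ratio of Prmt5cKO over control FPKM (horizontal axis), for the 49 members, for single genes at or above the lowest member's level and for all single genes of at least 1 FPKM. The curve of the members is the steepest, between -0.47 and 0.37, and on the left it runs to the right of both others.

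Among licensing genes, in which the inhibitor Gmnn is counted with the loaders, 10 of 14 had a ratio of Prmt5cKO over control above 1. Cdt1 rose, the other 11 tested genes of the 14 missed the threshold, and 2 had no test; the median log2 ratio was 0.07, or 0.19 above that of all genes, and 13 of 14 lay above that median. Cdt1, the loader that brings MCM to the origin, was at 14.8 FPKM in Prmt5cKO and 11.46 FPKM in control (the authors' deposited table, log2 fold 0.37, q = 0.0411). Its inhibitor Gmnn was at 62.9 FPKM in Prmt5cKO and 57.0 FPKM in control, for which the authors' deposited table gives a log2 fold of 0.14 and q = 0.534. Geminin transcripts were thus several times as abundant as those of its target in both genotypes. Cdc6, the ATPase that loads MCM together with Cdt1, was at 15.99 FPKM in Prmt5cKO and 16.7 FPKM in control (the authors' deposited table, q = 0.698).

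In the origin recognition complex none of 3 tested subunits passed the threshold, and Orc3 and Orc4 had no test. Orc1, its largest subunit and an ATPase, was the least abundant, at 9.76 FPKM in Prmt5cKO and 8.30 FPKM in control (the authors' deposited table, log2 fold 0.23, q = 0.325). Orc2 was at 26.1 FPKM in Prmt5cKO and 23.2 FPKM in control, and Orc3 at 17.6 FPKM in Prmt5cKO and 17.7 FPKM in control. Orc4 was at 27.4 FPKM in Prmt5cKO and 23.8 FPKM in control. Orc6, the most abundant subunit, was at 41.1 FPKM in Prmt5cKO and 39.8 FPKM in control. The subunit transcripts thus spanned a 4.21-fold range in Prmt5cKO and a 4.80-fold range in control. The row that Orc5 shares with Gm15421 held 27.7 FPKM in Prmt5cKO and 25.6 FPKM in control (the authors' deposited table, q = 0.545).

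The MCM helicase had the largest summed level of the roles and differed little. Its 6 genes summed to 666 FPKM in Prmt5cKO and 659 FPKM in control (101%), and none passed. Mcm7 was the most abundant, at 163 FPKM in Prmt5cKO and 177 FPKM in control, and had the lowest log2 fold, -0.12 (the authors' deposited table, q = 0.529). Mcm3, at 108 FPKM in Prmt5cKO and 98.6 FPKM in control, had the highest, 0.14 (the authors' deposited table, q = 0.453). Mcm4, the least abundant subunit, was at 69.6 FPKM in Prmt5cKO and 67.9 FPKM in control. Mcm2, Mcm5 and Mcm6 lay between these, for which the authors' deposited table gives log2 folds of 0.05, 0.09 and -0.03.

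The other proteins of the MCM name lay on opposite sides of a ratio of 1. Mcm10, which is not part of the hexamer and helps to activate it at the origin, rose to 29.7 FPKM in Prmt5cKO, against 23.3 FPKM in control (the authors' deposited table, log2 fold 0.35, q = 0.00294). Mcm8, a helicase of homologous recombination, was at 8.23 FPKM in Prmt5cKO and 9.88 FPKM in control (the authors' deposited table, log2 fold -0.26, q = 0.134).

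None of the 7 firing genes passed, and their median log2 ratio of -0.11 was 0.01 above that of all genes. Dbf4, the activating subunit of the Cdc7 kinase, came closest of all members that missed the threshold, at 45.9 FPKM in Prmt5cKO and 38.9 FPKM in control (the authors' deposited table, log2 fold 0.24, q = 0.0577). The catalytic partner Cdc7 was at 28.2 FPKM in Prmt5cKO and 28.7 FPKM in control. Cdc45 and the GINS genes, which complete the active helicase, all had a ratio below 1, with log2 ratios between -0.19 (Gins4) and -0.10 (Cdc45), and the authors' q-values were all at least 0.282. Relative to the median of all genes 2 of these 5 lay above it, so their position depends on the scaling. Gins3 was the least abundant, at 11.7 FPKM in Prmt5cKO and 12.7 FPKM in control, while Gins1, at 42.1 FPKM in Prmt5cKO and 46.5 FPKM in control, and Gins4, at 41.1 FPKM in Prmt5cKO and 46.7 FPKM in control, were the most abundant GINS genes. Gins2, at 30.1 FPKM in Prmt5cKO and 33.8 FPKM in control, shares 67.3% of its exonic length with Gse1 on the opposite strand in GENCODE M21, and the sources used here do not say whether the libraries kept strand.

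Polymerase genes had the lowest median ratio of the classes. Pold1 and Pole fell (22.2% of 9 tested, near the 19.3% of all genes) and the other 7 missed the threshold. A ratio below 1 was found in 8 of 9, while 69.8% of all single genes had a ratio of 1 or below. Relative to the median of all genes 3 of these 9 lay above it. Their summed level in Prmt5cKO was 89.8% of that in control (258 FPKM in Prmt5cKO and 287 FPKM in control). The median log2 ratio was -0.15, which is -0.034 relative to all genes. Pold1, the catalytic subunit of polymerase delta, fell to 25.9 FPKM in Prmt5cKO, against 33.7 FPKM in control (the authors' deposited table, log2 fold -0.38, q = 0.0192). Its accessory subunits Pold2 and Pold3 were at 31.2 and 30.6 FPKM in Prmt5cKO, against 31.9 and 30.3 FPKM in control, for which the authors' deposited table gives log2 folds of -0.04 and 0.02. Transcripts of the catalytic subunit were thus the most abundant of these 3 in control and the least abundant in Prmt5cKO. Whether Pold1 differed from Pold2 and Pold3 in its fold was not tested, as values per sample would be needed.

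Pole, the catalytic subunit of polymerase epsilon, fell to 19.8 FPKM in Prmt5cKO, against 24.0 FPKM in control (the authors' deposited table, log2 fold -0.28, q = 0.0207). Pole2, its second subunit, had nearly the same fold, -0.29, at 16.9 FPKM in Prmt5cKO and 20.7 FPKM in control, but missed the threshold (the authors' deposited table, q = 0.255). The subunits Pole3 and Pole4, which are not among the members, had a ratio above 1 and did not pass. They were at 39.7 and 33.4 FPKM in Prmt5cKO, against 36.2 and 33.1 FPKM in control (the authors' deposited table, q = 0.459 and q = 0.964). In the polymerase alpha and primase complex all 4 ratios lay below 1 and none passed, and 1 of the 4 lay above the median of all genes. The catalytic Pola1, the only X-linked member, was at 29.3 FPKM in Prmt5cKO and 32.0 FPKM in control, and Pola2, its regulatory subunit, at 27.6 FPKM in Prmt5cKO and 30.7 FPKM in control. Prim1, the catalytic primase, was at 48.4 FPKM in Prmt5cKO and 49.05 FPKM in control. The large primase subunit Prim2 was at 28.0 FPKM in Prmt5cKO and 34.6 FPKM in control (the authors' deposited table, log2 fold -0.30, q = 0.125).

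The clamp and its loader showed no member past the threshold, with 4 not passed and 2 untested. Pcna was at 360 FPKM in Prmt5cKO and 330 FPKM in control (the authors' deposited table, log2 fold 0.12, q = 0.514). Cdkn1a, whose protein p21 binds PCNA and inhibits cyclin-dependent kinases, was at 19.9 FPKM in Prmt5cKO and 3.45 FPKM in control (the authors' deposited table, log2 fold 2.53, q given as 0). Of the RFC subunits, Rfc3 was at 72.3 FPKM in Prmt5cKO and 66.0 FPKM in control, and Rfc2 at 66.8 FPKM in Prmt5cKO and 75.6 FPKM in control, for which the authors' deposited table gives log2 folds of 0.13 and -0.18. Rfc5 was at 32.3 FPKM in Prmt5cKO and 35.1 FPKM in control. The untested Rfc1, the large subunit, and Rfc4 stood at 28.5 and 42.9 FPKM in Prmt5cKO, against 32.8 and 44.3 FPKM in control. The median log2 ratio of the class was -0.08, 0.03 above that of all genes, and 0.003 with the 2 untested genes left out.

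RPA, which coats single-stranded DNA, and the enzymes that join Okazaki fragments were likewise without a change past the threshold. Rpa1, Rpa2 and Rpa3 were nearly equal in level, within a 1.10-fold range in Prmt5cKO (64.1 to 70.2 FPKM) and a 1.12-fold range in control (66.4 to 74.3 FPKM). As log2 folds the authors' deposited table gives -0.18, 0.08 and -0.08. Fen1, the flap endonuclease, was at 65.5 FPKM in Prmt5cKO and 63.2 FPKM in control, but 78.8% of its exonic length overlaps an antisense gene, Gm10143. Lig1, the ligase that seals the nicks, was at 40.4 FPKM in Prmt5cKO and 42.0 FPKM in control.

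Among nucleotide synthesis genes the salvage enzyme Tk1 stood apart from the others. Tk1, the cytosolic thymidine kinase, fell to 49.4 FPKM in Prmt5cKO, against 68.5 FPKM in control, and its log2 fold of -0.47 is the lowest of all members, with a q given as 0 by the authors' deposited table. A second, weak row of Tk1 was at 1.48 FPKM in Prmt5cKO and 1.34 FPKM in control, short of the threshold (the authors' deposited table, q = 0.743). Rrm1 and Rrm2, the large and small subunits of ribonucleotide reductase, were at 110 and 102 FPKM in Prmt5cKO, against 105 and 92.9 FPKM in control (the authors' deposited table, q = 0.521 and q = 0.463). Tyms, thymidylate synthase of the de novo route, was at 48.9 FPKM in Prmt5cKO and 51.2 FPKM in control (the authors' deposited table, q = 0.581). The class median was 0.005 on the log2 scale, 0.12 above that of all genes.

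Genes of chromatin at the fork stood above 1 in ratio. Hells, a chromatin remodeller needed for DNA methylation, rose to 53.3 FPKM in Prmt5cKO, against 44.1 FPKM in control (the authors' deposited table, log2 fold 0.27, q = 0.0215). Uhrf1, which brings the maintenance methyltransferase to newly copied DNA, was at 118 FPKM in Prmt5cKO and 116 FPKM in control and was not tested.

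**Figure D3:**
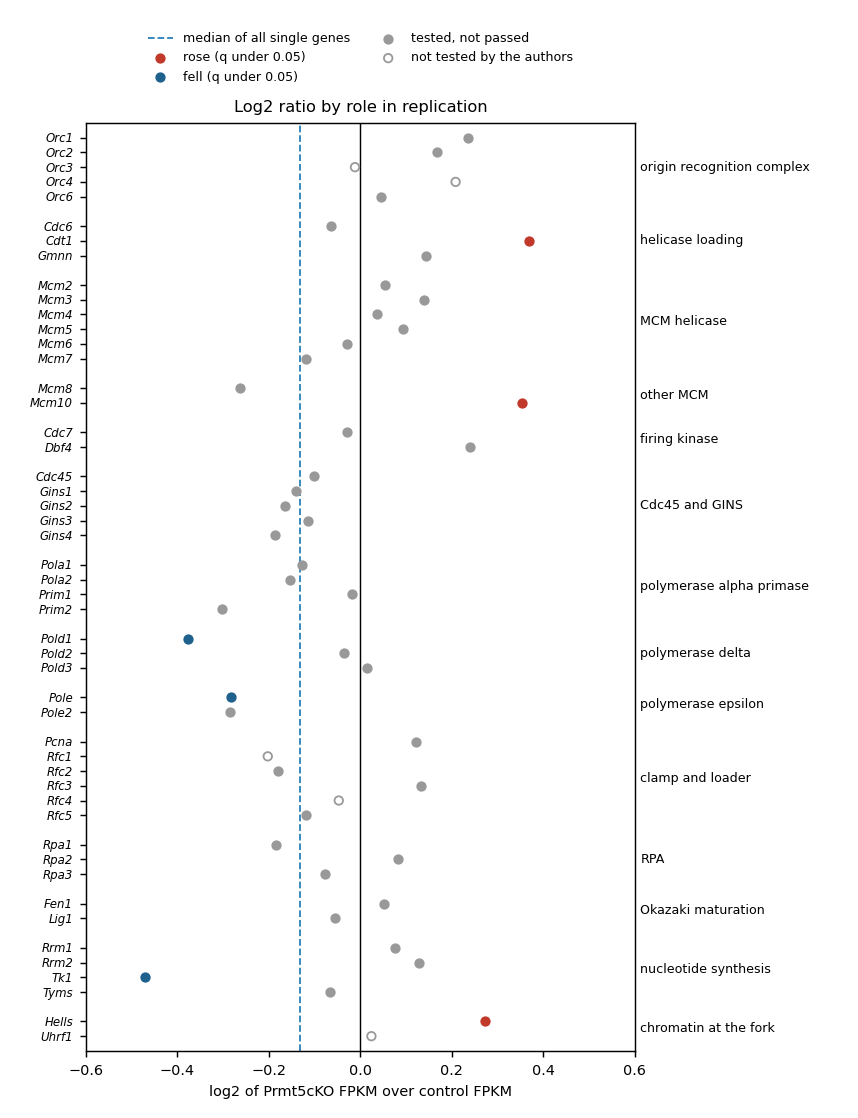
Log2 ratio of Prmt5cKO over control FPKM for each of the 49 members, ordered by role, with red points for members that rose, blue for those that fell, grey for those that did not pass and open points for those not tested by the authors. The dashed line is the median log2 ratio of all single genes without a pseudocount, -0.13, and 8 of 9 polymerase points and 5 of 5 points of Cdc45 and GINS lie left of 0. Of all single genes 69.8% lie at or left of 0.

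The 6 changed members lie on 6 different chromosomes. In GENCODE M21 on GRCm38 (mm10, the build of the submitters' processing notes) Cdt1 is at chr8:122568015-122573554 on the plus strand, Mcm10 at chr2:4989714-5012791 on the minus strand and Hells at chr19:38930915-38971051 on the plus strand. Tk1 is at chr11:117815526-117826092 on the minus strand, Pold1 at chr7:44532746-44548849 on the minus strand and Pole at chr5:110286306-110337474 on the plus strand. At most 1.60% of the exonic length of any of these 6 genes (Tk1, with Afmid on the opposite strand) is shared with another gene's exons. Of the other members, Orc2 shares 29.8% of its exonic length with Nif3l1 and Rfc2 15.1% with Lat2, both on the opposite strand, and Pole2 8.50% with Gm49384 on the same strand. Also on the opposite strand, Rfc4 shares 12.7% with Eif4a2, Orc1 10.8% with Gm12743 and Rfc5 10.7% with Wsb2. Smaller overlaps of further members are not listed here.

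Promoter windows, from 250 bases before to 50 after the annotated start, were read from RefSeq (GRCm38.p6) for 42 of the 50 listed genes. Matches to the E2F motif, searched on both strands as TTTGGCGC, TTTCCCGC, TTTGCCGC or TTTCGCGC, were in 18 of 42 members (42.9%), against 5.6% of 5123 genes at or above the lowest member's level and 2.60% of all 27025 genes with a window. A gene was counted where any of its windows held a match. The CCAAT box (CCAAT) was in 59.5% of members, 44.2% of genes at their level and 41.1% of all genes, and the GC box (GGGCGG) in 78.6% of members, 73.0% of genes at their level and 38.2% of all genes. Members and genes at their level were alike in base composition, with a median GC content of 61.8% in members and 61.7% in genes at their level. The 18 genes held 24 matches, some of which overlap on opposite strands, and 16 of them began no more than 100 bases before the start or after it.

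**Figure D4:**
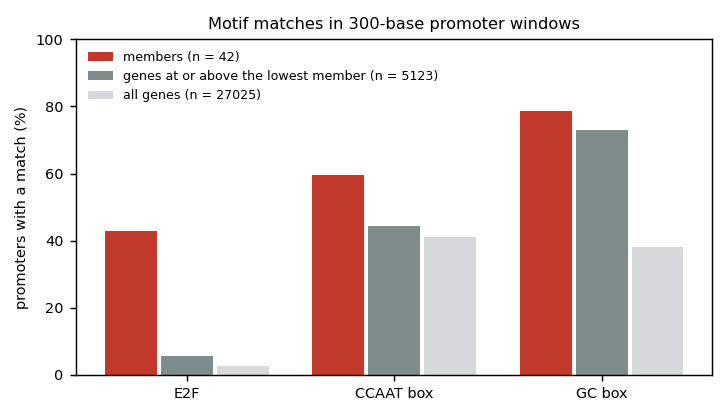
Percent of genes with at least 1 match to the E2F, CCAAT box and GC box motifs in 300-base promoter windows, for the members, for genes at or above the lowest member's level and for all genes with a window. The E2F bars are at 42.9%, 5.6% and 2.60%, while the GC box bars of members and of genes at their level are close, at 78.6% and 73.0%.

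Each role had few windows, and whether the roles differ in matches was not tested. The matches were present in 4 of 5 MCM helicase genes with a window, in Cdc6 and Cdt1 (Gmnn had no window) and in Orc1 and Orc3, 2 of 5 origin recognition genes. Both Hells and Uhrf1 had them, and none of the 4 nucleotide synthesis, 3 RPA and 2 firing kinase genes did. In the remaining roles they were in Gins3, Mcm8, Pola1, Pold1, Pold3, Pole2, Rfc3 and Lig1. Members with and without a match had the same median log2 ratio to the second decimal, -0.02 over 18 genes and -0.02 over 23, with 2 risen and 1 fallen against 1 risen and 1 fallen. The risen member without a match is Mcm10, whose window ends in TTTGGCG. Whether a match runs past that end was not examined. The match in each licensing gene, the one nearest its start where there are several, is printed with its flanking bases. The motif letters are alike because the search required them. Capitals mark the motif, read on the strand that carries it, with up to 8 flanking bases.
Orc1: agaaaactTTTCGCGCcactaacc
Orc3: tgcctcccTTTCCCGCacgccccg
Cdc6: ccaggcgaTTTCCCGCtctccacc
Cdt1: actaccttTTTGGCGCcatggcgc
Mcm3: tcccaagtTTTCCCGCcacggaag
Mcm5: ctggacgtTTTGGCGCgaaagttc
Mcm6: tggacgggTTTGGCGCgaagtagc
Mcm7: tgacgacgTTTCGCGCcaatttcg
The sites of Cdt1, Mcm3 and Mcm7 begin 32, 19 and 16 bases after the annotated start, and those of Orc1, Orc3 and Mcm6 lie 27, 41 and 47 bases before it.

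Whole windows are shown for 3 of the changed members, to set a gene that rose with a match (Cdt1) beside a gene that fell with a match (Pold1) and one that fell without (Tk1). Each is written 5′ to 3′ on the strand of its gene, and capitals mark the E2F matches and the GC boxes, in either orientation. They lie at chr8:122567765-122568064 (plus strand), chr7:44548766-44549065 (minus strand) and chr11:117825965-117826264 (minus strand) in GRCm38.p6.
Cdt1: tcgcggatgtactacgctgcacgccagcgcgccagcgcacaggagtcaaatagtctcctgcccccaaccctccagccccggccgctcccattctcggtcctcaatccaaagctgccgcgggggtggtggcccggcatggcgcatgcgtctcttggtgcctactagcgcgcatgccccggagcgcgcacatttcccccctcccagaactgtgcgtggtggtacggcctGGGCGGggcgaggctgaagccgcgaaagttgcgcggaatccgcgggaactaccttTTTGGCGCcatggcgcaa
Pold1: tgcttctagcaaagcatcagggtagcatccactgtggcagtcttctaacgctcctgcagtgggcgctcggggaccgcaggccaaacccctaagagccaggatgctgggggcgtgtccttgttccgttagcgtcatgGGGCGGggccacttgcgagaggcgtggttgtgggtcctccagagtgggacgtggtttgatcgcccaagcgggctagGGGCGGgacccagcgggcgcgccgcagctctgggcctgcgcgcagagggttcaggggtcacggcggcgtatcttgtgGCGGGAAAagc
Tk1: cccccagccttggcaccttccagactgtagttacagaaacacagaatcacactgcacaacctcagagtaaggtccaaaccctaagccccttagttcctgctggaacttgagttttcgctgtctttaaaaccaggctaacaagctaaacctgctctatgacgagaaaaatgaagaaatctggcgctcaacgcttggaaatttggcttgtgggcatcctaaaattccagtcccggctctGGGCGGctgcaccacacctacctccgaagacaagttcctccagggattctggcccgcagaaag
The absence of a match in the window of Tk1 says only that these letters are not in it.

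Further genes of DNA replication were taken from 6 lists of 84 names. Of 77 that reached the minimum level 5 rose and 10 fell, while 49 missed the threshold and 13 had no test, so 23.4% of those tested were changed, near the 24.1% of all genes. No list's share was tested against that of all genes. Their median log2 ratio was -0.01. E2f1, an activating E2F factor, was at 8.41 FPKM in Prmt5cKO and 8.05 FPKM in control (the authors' deposited table, q = 0.762), and Ccne1, cyclin E1 of the G1 to S transition, at 29.0 FPKM in Prmt5cKO and 28.6 FPKM in control (the authors' deposited table, q = 0.954). Of 14 E2F and Rb genes, 12 of them tested, 3 fell (25% of those tested, against 19.3% of all genes) and none rose: E2f6 and E2f8, both repressors of transcription, and Rbl2, the Rb relative p130, for which the authors' deposited table gives log2 folds of -0.34, -0.40 and -0.55. E2f8 overlaps a gene on the opposite strand over 11.2% of its exonic length. Rbl2 overlaps Aktip over 9.17% and Gm45464 over 11.8% of its exonic length, both on the opposite strand. Of 9 proliferation markers Bub1 rose to 41.9 FPKM in Prmt5cKO, against 35.1 FPKM in control (the authors' deposited table, log2 fold 0.25, q = 3.62e-08), 7 did not pass and none fell. Top2a, the remaining one, was at 214 FPKM in Prmt5cKO and 291 FPKM in control and had no test. Bub1 is thus 12.5% of the 8 tested markers, against 4.83% of all genes that rose. Mki67 was at 61.1 FPKM in Prmt5cKO and 62.7 FPKM in control (the authors' deposited table, q = 0.870).

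At the fork and its checkpoint 2 of 12 genes fell and none rose. With 3 of the 12 untested this is 22.2% of those tested, near the 19.3% of all genes that fell. Wdhd1, which links polymerase alpha to the helicase, was at 28.1 FPKM in Prmt5cKO and 35.2 FPKM in control, and Atr, the kinase that answers stalled forks, at 13.5 FPKM in Prmt5cKO and 15.7 FPKM in control, for which the authors' deposited table gives log2 folds of -0.33 and -0.22. Among 12 further origin factors Mtbp, which acts with Ticrr in firing, rose by 0.28 on the log2 scale (the authors' deposited table, q = 0.0221). It is 11.1% of the 9 tested, against 4.83% of all genes that rose, and none fell. Among 10 genes of replication-coupled chromatin Mms22l, needed for recovery of stalled forks, rose by 0.26 on the log2 scale (the authors' deposited table, q = 0.00406). With 4 of these 10 untested it is 16.7% of the 6 tested, and none fell.

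The subunits of RNase H2, which removes RNA from DNA, went in opposite directions. Rnaseh2c was at 49.8 FPKM in Prmt5cKO and 105 FPKM in control, 47.6% of the control value, and Rnaseh2a at 17.1 FPKM in Prmt5cKO and 23.0 FPKM in control, for which the authors' deposited table gives log2 folds of -1.07 and -0.43 (q = 3.99e-10 and q = 0.0344). Rnaseh2b, the remaining subunit, rose to 26.5 FPKM in Prmt5cKO, against 21.1 FPKM in control (the authors' deposited table, log2 fold 0.33, q = 0.0415). Rnaseh2c shares 24.8% of its exonic length with Kat5 on the opposite strand, and the part of reads from Kat5 was not tested. In the same list of 14 genes Pold4, the small subunit of polymerase delta, fell to 3.19 FPKM in Prmt5cKO, against 5.73 FPKM in control (the authors' deposited table, log2 fold -0.85, q = 0.0279). Pold4 shares 24.6% of its exonic length with AC109138.7 and Rnaseh2a 9.66% with Gm49661, both on the same strand, so how reads were divided there is uncertain. Rnaseh2a also shares 5.04% with Prdx2 on the opposite strand. The 4 changed genes are 30.8% of the 13 tested in this list, against 24.1% of all genes.

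Among 15 genes that supply nucleotides 2 rose and 2 fell, 26.7% of those tested and near the 24.1% of all genes. Nme1, a nucleoside diphosphate kinase, was at 227 FPKM in Prmt5cKO and 183 FPKM in control, and Mthfd1, an enzyme of folate metabolism, at 41.5 FPKM in Prmt5cKO and 31.9 FPKM in control, for which the authors' deposited table gives log2 folds of 0.31 and 0.38. Nme1 shares 12.5% of its exonic length with a gene model on the same strand, so how reads were divided there is uncertain. Dctd, which makes dUMP for thymidylate synthase, fell by 0.19 on the log2 scale (the authors' deposited table, q = 0.0413). Rrm2b, the small ribonucleotide reductase subunit that works outside S phase and a known p53 target, fell to 1.34 FPKM in Prmt5cKO, against 2.25 FPKM in control (the authors' deposited table, log2 fold -0.75, q = 0.0231). The shorter deposited table of 208 rows, in which every fold is at least 2.0, holds none of the 50 listed genes.

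**Figure D5:**
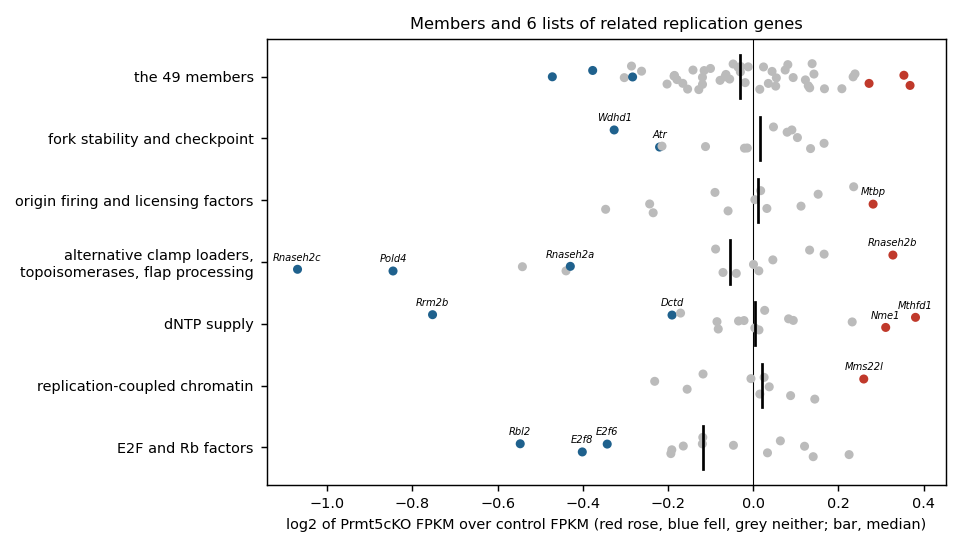
Log2 ratio of Prmt5cKO over control FPKM for the 49 members and for 6 lists of related genes, 1 point per gene, with a vertical bar at the median, red for genes that rose and blue for genes that fell. The members lie between -0.47 and 0.37, and the lowest point of the lists is Rnaseh2c at -1.07.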

How the data were processed

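Forelimbs of 3 control and 2 Prmt5cKO samples at E11.5 were grouped as their titles say. TRIzol RNA was sequenced as Illumina libraries, per the labels' protocols. Software named in the submitters' processing notes, with no role or setting, is Cufflinks 2.1.1, Bowtie2 2.1.0 and TopHat2 2.0.10, and the build is mm10. Each row holds, per the file headers, the authors' FPKM for either genotype, their log2 fold of Prmt5cKO against control, and a q-value (adjusted p-value). Their annotation, test, adjustment and way of combining replicates are not given in the sources used, so whether q measures the spread between samples is unknown. Depth per sample is unknown. The deposited log2 fold changes differed from the log2 of the FPKM ratio by at most 1.28e-05 over 20663 rows with both values above 0 and a fold other than 0 or a q other than 1.

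Rows naming no gene or several genes were left out, and 1 row per symbol (the highest mean) was kept, 11674 with a mean of at least 1 FPKM, of which 1057 had a fold of 0 with a q of 1 and were read as not tested. Group medians are of log2((Prmt5cKO FPKM + 1) / (control FPKM + 1)), and no test was run on them. Coordinates and exon overlaps came from GENCODE M21, promoter windows from RefSeq. All listed genes are named, with the related genes past the threshold and Prmt5, Xist, Ddx3y, Cdkn1a, E2f1, Ccne1 and Mki67. Bub1, Top2a, Pole3, Pole4, the named cell type markers and the partner genes among the other observations fall outside that rule and were chosen after their values were seen. The genes and lists were chosen with earlier results of these data known. Python 3.11.15 and pandas 2.3.3 were used, and the counting was tested on simulated data.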

Additional observations from a re-analysis of the deposited data

How the results depend on the processing

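Every result rests on 1 value per genotype, so no spread between samples can be given, and each omission of a replicate could not be run. No paired analysis was possible because the deposited columns carry no sample or replicate. At a q under 0.01 the count of risen members was 1 (Mcm10) and that of fallen members 1 (Tk1), while Cdt1, Hells, Pold1 and Pole no longer passed; their q-values were between 0.0192 and 0.0411. The counts of 3 risen and 3 fallen stayed between 2 and 4 with a q under 0.10, no minimum level, a minimum of 5 FPKM, the weakest row per symbol, or a minimum fold besides the q. Centring on the median of all single genes moved the median log2 ratio to 0.085 for all members, 0.19 for licensing, 0.0086 for firing, -0.034 for polymerase, 0.034 for clamp and loader and 0.12 for nucleotide synthesis genes, which turns the sign for all members, firing and clamp and loader. Pseudocounts of 0.1 and 0.01, other minimum levels and leaving out untested members moved these medians by less than 0.1. That margin is wider than several of the medians themselves. Leaving out untested members took the clamp and loader median from -0.081 to 0.003, which also turns its sign. Under centring the 6 changed members kept their direction, with Pole nearest to 0 at -0.15.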

Other observations

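Some replication genes share a promoter region with a gene read in the opposite direction. Counted as partners were protein-coding genes on the opposite strand that start up to 1000 bases before the member's start. Genes whose start lies past that of the member, so that the 2 overlap, were not counted. For 8 members, 8 such partners had a row. Of these 2 fell and none rose (25% changed, near the 24.1% of all genes). Member and partner lay on the same side of a ratio of 1 in 5 of 8 pairs, with log2 ratios of 0.23 for Orc1 and 0.21 for Prpf38a, -0.01 for Orc3 and -0.19 for Rars2, -0.26 for Mcm8 and -0.11 for Trmt6, -0.14 for Gins1 and -0.19 for Abhd12, and -0.18 for Rpa1 and -0.16 for Smyd4. In the other 3 they lay on opposite sides. Of all single genes 69.8% had a ratio of 1 or below, so unrelated genes would often share a side. Whether 5 of 8 pairs is more than among unrelated genes was not tested. Slc25a40, a mitochondrial carrier gene whose start lies 134 bases from that of Dbf4, fell to 4.40 FPKM in Prmt5cKO, against 7.08 FPKM in control (the authors' deposited table, log2 fold -0.69, q = 4.92e-05), while Dbf4 had a log2 fold of 0.24 and did not pass. Prkdc, the DNA repair kinase gene 466 bases from the start of Mcm4, was at 8.85 FPKM in Prmt5cKO and 10.3 FPKM in control (the authors' deposited table, log2 fold -0.22, q = 0.0472), beside 0.04 for Mcm4. Pxmp2, a peroxisomal membrane protein gene 120 bases from the start of Pole, was at 3.63 FPKM in Prmt5cKO and 3.23 FPKM in control (the authors' deposited table, log2 fold 0.17, q = 0.776), while Pole fell. Whether the fold of a member differed from that of its partner was not tested.

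Folds and q-values in the authors' deposited table did not rank the members alike. Prim2, Pole2 and Pole, at log2 folds of -0.30, -0.29 and -0.28, had q-values of 0.125, 0.255 and 0.0207, so of these only the smallest fold passed. Without values per sample the origin of this was not tested.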
